A study of Mus musculus with 10 samples.

Results

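The 43 genes described here build the machinery that copies chromosomal DNA in S phase, supply its nucleotides and control entry into it. They were chosen by symbol from a list written with earlier results of these data known, and all 43 were found among the 45706 genes of the deposited table. They lie on 14 chromosomes and were sorted into 11 roles, from the MCM2-7 helicase to the G1/S regulators. The RNA came from T cells of the mouse spleen and from cDC2s, the type 2 conventional dendritic cells of the same organ, which present antigen to helper T cells. One genotype was Cd47ΔT, in which, by the name of the genotype, Cd47 is deleted in T cells, and the control genotype was Cd47f/f, whose Cd47 alleles are floxed. CD47 is a surface protein that protects a cell from being engulfed by phagocytes. There were 2 Cd47ΔT and 2 Cd47f/f libraries of T cells, and 3 Cd47ΔT and 3 Cd47f/f libraries of cDC2s. No treatment or time point is named in the labels, and the Cre line, the deleted exons, the age of the mice and the way the cells were isolated are not stated in the labels. For T cells an RNeasy mini kit was followed by TruSeq stranded mRNA libraries, and for cDC2s an RNeasy micro kit was followed by SMART-seq stranded libraries, so cell type and kit cannot be told apart in levels.

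Replication origins are licensed in G1, when the origin recognition complex with CDC6 and CDT1 loads the MCM2-7 helicase onto DNA. In S phase, CDC45 and the GINS complex join the helicase, polymerase alpha-primase lays down primers, polymerases epsilon and delta extend them on the PCNA clamp, and FEN1 and LIG1 seal the fragments of the lagging strand. E2F transcription factors drive many of these genes at the G1/S boundary, and most T cells in the spleen of an unchallenged mouse are resting cells that express them at low levels.

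The values are TPM, transcript abundances corrected for transcript length and scaled to the same total in each library, so they can be compared between genes, while the sequencing depth behind them is unknown. A level of 1 TPM was reached by 11514 to 12594 genes per library of T cells and by 11852 to 12146 genes per library of cDC2s. Cd47 was at 40.4 and 51.7 TPM in Cd47ΔT T cells, against 138 and 233 TPM in Cd47f/f T cells (log2 fold change -1.95 ± 0.26, adjusted p = 0.0112 by limma), and at 151, 159 and 135 TPM in Cd47ΔT cDC2s, against 140.2, 144 and 162 TPM in Cd47f/f cDC2s. The 9 T cell markers summed to 4879 and 4568 TPM in Cd47ΔT T cells, against 4575 and 4548 TPM in Cd47f/f T cells, and to between 17.0 and 25.3 TPM in every cDC2 library. In cDC2 libraries 9 cDC2 markers summed to 1152, 1235 and 1220.3 TPM with Cd47ΔT, against 1474, 1391 and 1516 TPM with Cd47f/f, and 1 of them, Cd209a, was lower in Cd47ΔT (-1.54 ± 0.17, adjusted p = 0.020). Among cDC2s, Cd47f/f library 3 stood apart, with the lowest correlations to the other libraries (Pearson r across genes, 0.929 to 0.937). The labels name no mouse behind a replicate, so the p-values cover only differences among the libraries at hand, and those may be technical. In these bulk samples, fewer cells of a type and less RNA per cell cannot be told apart.

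In T cells, 23 of the 43 replication genes were higher in Cd47ΔT than in Cd47f/f and 0 were lower. With limma on log2(TPM + 1) and Benjamini-Hochberg adjustment over the 12453 genes tested, these 23 (53.5%) passed an adjusted p of 0.05, where 8.5% of all genes passed as higher and 0.875% as lower. The median log2 fold change was 0.83 over the 43 and 0.10 over all genes tested. Of the 43 values 42 were positive, against 65.4% of all genes. All 43 passed the filter on low values, Orc1 only through its Cd47ΔT libraries, so that it had to differ. Without genes under 1 TPM in both Cd47f/f libraries, 22 of 42 were higher, and 777 of 11912 of all genes. Both Cd47ΔT libraries lay above both Cd47f/f libraries for 41 of the 43 (95.3%), against 37.0% of all genes. The exceptions were Rpa1 and Pold2. Together the 43 genes summed to 1893 and 1794 TPM in Cd47ΔT T cells, against 1051 and 1219 TPM in Cd47f/f T cells, a 1.62-fold higher mean, and Cd47f/f library 2 was above Cd47f/f library 1 for 39 of the 43. Each log2 fold change, given with its standard error, sets Cd47ΔT over Cd47f/f in log2(TPM + 1), a scale that understates the change of genes with low TPM. Without the filter on low values, none of the 43 passed (lowest adjusted p = 0.0608, 39 with an unadjusted p under 0.05, and 14 genes higher in the whole table). Leaving out 1 library at a time gave 11 genes without Cd47ΔT library 1, 16 without Cd47ΔT library 2, 16 without Cd47f/f library 1 and 33 without Cd47f/f library 2, where the lone library of a genotype is assumed to vary like the other genotype's pair.

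**Figure D1:**
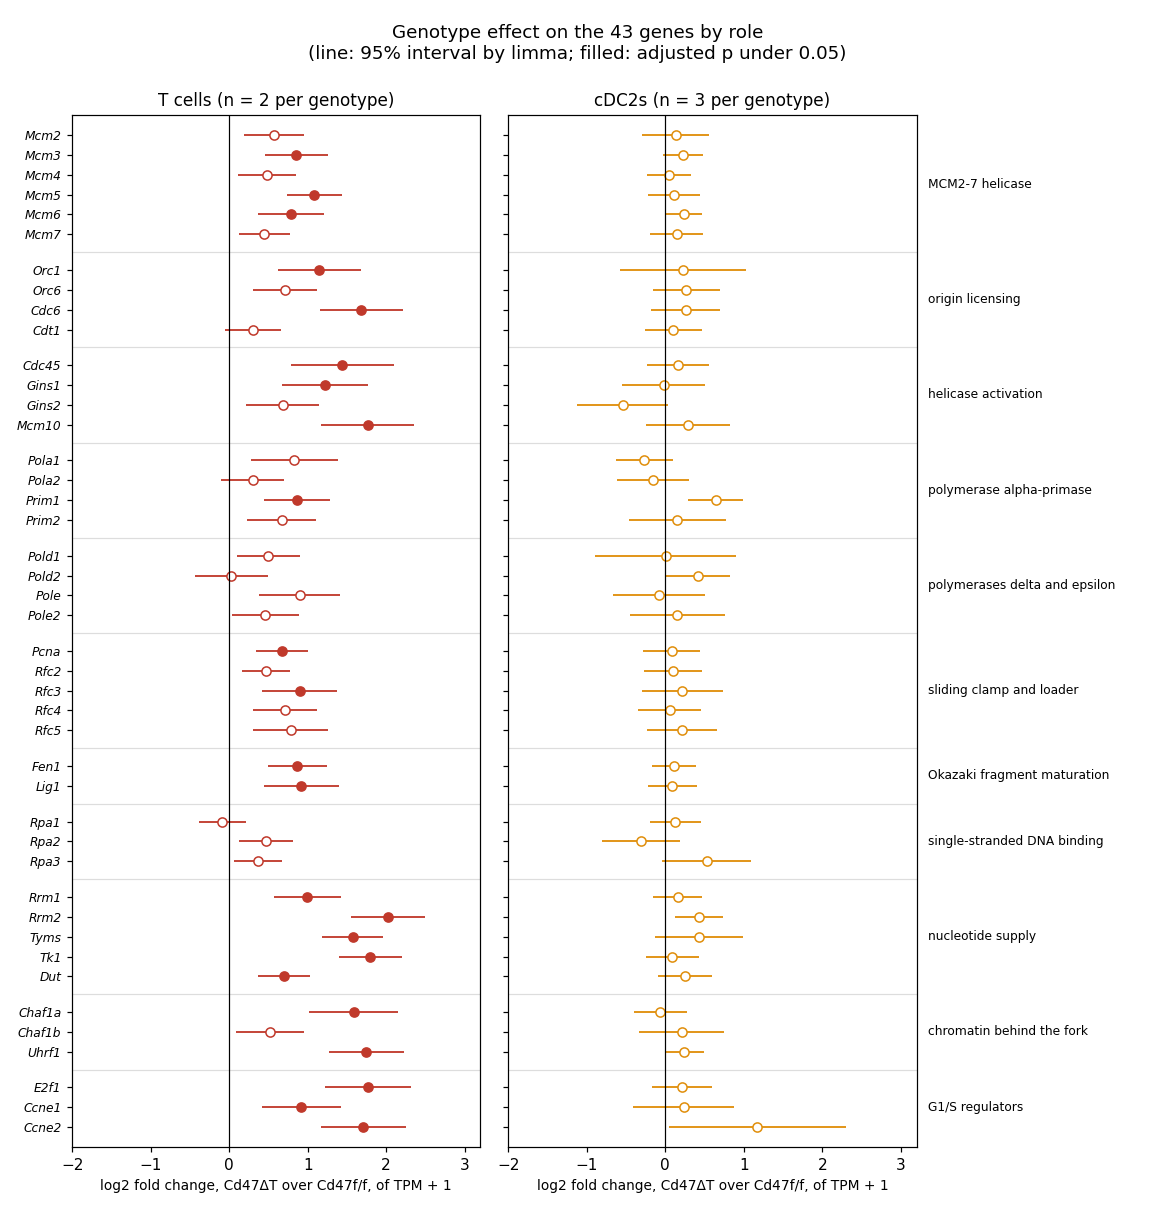
Log2 fold change of each of the 43 genes (Cd47ΔT over Cd47f/f, of TPM + 1) in T cells on the left and cDC2s on the right, grouped by role, with limma's 95% confidence interval as a line and filled points for an adjusted p under 0.05. In T cells 42 of the 43 points lie right of 0 and 23 are filled, and in cDC2s 36 lie right of 0 and none is filled.

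Markers of other cell types moved in the same libraries. Of 69 such markers from 11 cell types, 51 could be tested in T cells and 38 were higher in Cd47ΔT, with 0 lower. The red pulp macrophage markers summed to 130.2 and 209 TPM in Cd47ΔT T cells, against 15.5 and 19.7 TPM in Cd47f/f T cells, the plasma cell markers to 350.1 and 384 TPM in Cd47ΔT T cells, against 62.1 and 72.1 TPM in Cd47f/f T cells and the B cell markers to 63.98 and 135 TPM in Cd47ΔT T cells, against 16.9 and 21.1 TPM in Cd47f/f T cells. Most of the plasma cell sum was Jchain, at 309 and 345 TPM in Cd47ΔT T cells. Not all sums moved alike. The plasmacytoid dendritic cell markers summed to 186 and 205 TPM in Cd47ΔT T cells, against 149 and 144 TPM in Cd47f/f T cells. Most of that sum was Bst2, at 148 and 151 TPM in Cd47ΔT T cells, against 110 and 97.8 TPM in Cd47f/f T cells. By gene, 4 of the 5 had a positive log2 fold change and 2 were called higher, with a median of 1.06. Ccr9 was the one with a negative value (-0.44). The megakaryocyte and platelet markers summed to 15.8 and 17.4 TPM in Cd47ΔT T cells, against 22.6 and 30.1 TPM in Cd47f/f T cells. Most of that sum was Itgb3, at 14.4 and 14.2 TPM in Cd47ΔT T cells, against 22.2 and 29.1 TPM in Cd47f/f T cells. Itgb3 was the only 1 of the 5 that could be tested, so the lower sum describes that gene and not the list. The 9 cDC2 markers, which are not among the 69, summed to 45.00 and 67.97 TPM in Cd47ΔT T cells, against 9.92 and 13.1 TPM in Cd47f/f T cells. Of the defining markers, only Ly6g of neutrophils and Pf4 of platelets were at 0 in all 4 T cell libraries. Some of these genes, such as Ly6c2 and Ccr2 among the monocyte markers, are also expressed by T cells. Between the Cd47ΔT libraries, 47 of the 51 markers were higher in library 2 than in library 1, and 32 of the 43 replication genes were higher in library 1 than in library 2. Between the Cd47f/f libraries, 41 of the 51 markers and 39 of the 43 replication genes were higher in library 2 than in library 1. The 9 T cell markers had 0 calls and a median log2 fold change of 0.03. The part of other cells in the values of the replication genes was not tested.

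All 6 subunits of the MCM2-7 helicase, the ring that unwinds the template, lay higher in both Cd47ΔT than in both Cd47f/f T cell libraries, and Mcm3, Mcm5 and Mcm6 passed the test (median log2 fold change of the 6, 0.68). Mcm6, the subunit with the highest mean in T cells, was at 117 and 103 TPM in Cd47ΔT T cells, against 54.4 and 73.6 TPM in Cd47f/f T cells (0.79 ± 0.17, adjusted p = 0.043). Mcm5 had the largest change of the ring, with 49.5 and 47.7 TPM in Cd47ΔT T cells, against 21.3 and 23.5 TPM in Cd47f/f T cells (1.09 ± 0.14, adjusted p = 0.0111). Mcm3 was at 79.8 and 68.4 TPM in Cd47ΔT T cells, against 36.01 and 45.4 TPM in Cd47f/f T cells (0.85 ± 0.17, adjusted p = 0.0292). Mcm7, with 82.1 and 78.2 TPM in Cd47ΔT T cells, against 54.1 and 63.02 TPM in Cd47f/f T cells, did not pass (0.45 ± 0.13, adjusted p = 0.102), nor did Mcm2 and Mcm4 at log2 fold changes of 0.57 and 0.48. The subunits assemble in equal numbers, but their shares of the ring's RNA were not the same in both genotypes. Mcm5 made up 11.3% and 11.8% of the summed TPM of the ring in Cd47ΔT T cells, against 9.1% and 8.1% in Cd47f/f T cells. Mcm7 made up 18.8% and 19.3% in Cd47ΔT T cells, against 23.2% and 21.8% in Cd47f/f T cells, and these shares were not tested. Mcm7 shares exon bases with 2 genes on the opposite strand and is close in sequence to a processed pseudogene (97.7% identical over 72.8% of its length), so its values are uncertain.

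Among the 4 licensing factors, which load the ring, Cdc6 rose, Orc6 and Cdt1 did not pass, and Orc1 was called. Cdc6, the ATPase that loads MCM2-7 with the origin recognition complex, was at 10.8 and 9.54 TPM in Cd47ΔT T cells, against 2.18 and 2.79 TPM in Cd47f/f T cells (1.68 ± 0.22, adjusted p = 0.0105). Orc1, the largest subunit of that complex, was at 3.14 and 3.06 TPM in Cd47ΔT T cells, against 0.80 and 0.90 TPM in Cd47f/f T cells (1.15 ± 0.22, adjusted p = 0.0272), so it entered the test only through its Cd47ΔT libraries. Cdt1, the MCM loading partner that is degraded in S phase, was at 37.7 and 35.2 TPM in Cd47ΔT T cells, against 27.7 and 31.2 TPM in Cd47f/f T cells. The genotypes did not overlap for Cdt1, but the change missed the test (0.30 ± 0.15, adjusted p = 0.32, 95% interval -0.06 to 0.66). Orc6, another origin recognition subunit, had 0.71 ± 0.17, adjusted p = 0.0534.

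The promoters of these genes hold E2F sites in textbook accounts, so windows of 250 bases before and 50 after the annotated start were read from the RefSeq table of GRCm38.p6, which had a window for 36 of the 43 genes. The search took 4 E2F octamers on both strands: TTTCCCGC, TTTCGCGC, TTTGCCGC and TTTGGCGC. At least 1 was present for 13 of the 36 genes (36.1%), against 2.6% of the 27025 genes of the table and 4.9% of the 8990 genes with a window that were tested in T cells. The share was 38.1% of the 21 genes with a window that rose in T cells (8 genes) and 33.3% of the 15 that did not pass (5 genes). Of all genes higher in T cells, 5.5% of the 704 with a window held one. The CCAAT box, bound by NF-Y, was present for 58.3% of the 36 and 41.1% of the table, and the TTTGAA element, known as CHR in cell cycle promoters, for 11.1% of the 36 and 20.2% of the table. The motifs were searched independently and matches that share bases were each counted. A match describes letters in a window, not binding. These 5 windows are shown 5′ to 3′ on the gene's strand, with matches to the octamers in capitals (overlapping matches run together): 2 helicase subunits that rose, the loader that rose with its partner that did not pass, and Rrm2, which had the largest change and no match.
Mcm5 (chr8:75109259-75109558, plus strand): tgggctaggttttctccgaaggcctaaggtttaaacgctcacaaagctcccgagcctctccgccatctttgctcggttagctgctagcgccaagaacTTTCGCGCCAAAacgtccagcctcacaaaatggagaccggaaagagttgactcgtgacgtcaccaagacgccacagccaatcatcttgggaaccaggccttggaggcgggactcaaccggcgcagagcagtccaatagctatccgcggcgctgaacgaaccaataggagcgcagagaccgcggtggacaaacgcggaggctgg
Mcm6 (chr1:128359656-128359955, minus strand): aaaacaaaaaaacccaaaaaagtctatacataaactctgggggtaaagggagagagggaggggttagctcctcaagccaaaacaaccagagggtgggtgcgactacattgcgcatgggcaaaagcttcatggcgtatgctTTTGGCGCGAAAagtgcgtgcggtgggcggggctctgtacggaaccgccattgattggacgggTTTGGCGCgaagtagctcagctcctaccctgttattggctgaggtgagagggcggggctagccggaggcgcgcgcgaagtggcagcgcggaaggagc
Cdc6 (chr11:98907901-98908200, plus strand): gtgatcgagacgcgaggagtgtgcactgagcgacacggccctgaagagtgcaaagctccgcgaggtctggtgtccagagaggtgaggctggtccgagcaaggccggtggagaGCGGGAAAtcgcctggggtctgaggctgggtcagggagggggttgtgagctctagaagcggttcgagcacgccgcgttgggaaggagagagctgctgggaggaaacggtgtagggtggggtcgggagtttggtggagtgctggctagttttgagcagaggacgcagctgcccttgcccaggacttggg
Cdt1 (chr8:122567765-122568064, plus strand): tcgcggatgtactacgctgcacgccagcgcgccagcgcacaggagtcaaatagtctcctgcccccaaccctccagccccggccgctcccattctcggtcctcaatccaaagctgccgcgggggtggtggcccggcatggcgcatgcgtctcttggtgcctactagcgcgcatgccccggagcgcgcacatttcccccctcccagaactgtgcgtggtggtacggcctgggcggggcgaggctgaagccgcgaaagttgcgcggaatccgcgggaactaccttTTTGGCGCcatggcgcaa
Rrm2 (chr12:24708004-24708303, plus strand): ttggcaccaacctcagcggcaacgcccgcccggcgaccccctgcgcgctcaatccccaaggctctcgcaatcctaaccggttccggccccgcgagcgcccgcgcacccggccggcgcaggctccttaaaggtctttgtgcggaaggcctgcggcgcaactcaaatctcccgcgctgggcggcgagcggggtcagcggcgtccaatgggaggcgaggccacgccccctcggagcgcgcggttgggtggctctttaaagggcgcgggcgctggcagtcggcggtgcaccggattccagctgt
Counted from the start as +1 (the base before it is -1), the octamers begin at -153 and -149 in Mcm5, at -110, -106 and -47 in Mcm6, at -138 in Cdc6 and at +33 in Cdt1. In Mcm5 and in Mcm6, a pair of octamers on opposite strands overlaps by 4 bases. Positions count from RefSeq's start. For Cdc6 that start lies 350 bases inside the gene as GENCODE annotates it, so the whole window is within that gene model, and for the other 4 genes shown the starts lie at most 60 bases apart. Among genes not shown, the starts lie 466 bases apart for E2f1 and 325 for Dut, and neither window held an octamer. A gene with several windows was counted if any of them held an octamer. For Mcm7, Lig1 and Uhrf1 only 1 window did, and its start lies 539, 1543 and 992 bases from GENCODE's. The shares above thus depend on RefSeq's starts. The genes were picked for display with their changes known, and nothing is read from how they moved.

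Of the 4 genes that turn the loaded ring into a moving helicase, Mcm10, Cdc45 and Gins1 rose (median of the 4, 1.33). Mcm10, which is needed to activate the helicase, was at 9.69 and 9.01 TPM in Cd47ΔT T cells, against 1.6 and 2.58 TPM in Cd47f/f T cells (1.76 ± 0.24, adjusted p = 0.0118). Cdc45, a helicase cofactor, was at 15.1 and 13.1 TPM in Cd47ΔT T cells, against 3.43 and 5.98 TPM in Cd47f/f T cells (1.44 ± 0.27, adjusted p = 0.0267). Gins1 was at 11.6 and 8.64 TPM in Cd47ΔT T cells, against 3.64 and 3.8 TPM in Cd47f/f T cells (1.22 ± 0.22, adjusted p = 0.0255). The second GINS subunit measured, Gins2, was at 13.5 and 12.6 TPM in Cd47ΔT T cells, against 8.37 and 7.24 TPM in Cd47f/f T cells and did not pass (0.68 ± 0.19, adjusted p = 0.0845), and most of its transcript shares bases with Gse1 on the opposite strand (2758 exon bases). The Mcm10 libraries did not overlap between genotypes, and neither did those of the other 3 genes.

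Polymerases delta and epsilon and the single-stranded DNA binding complex had the lowest median log2 fold changes of the 11 roles (0.48 and 0.37), and polymerase alpha-primase stood at 0.75. Prim1, the catalytic primase subunit, was the 1 gene of polymerase alpha-primase that rose, at 29.1 and 24.6 TPM in Cd47ΔT T cells, against 13.5 and 15.1 TPM in Cd47f/f T cells (0.86 ± 0.17, adjusted p = 0.0327). Pola2, the accessory subunit with the highest mean of the complex, was at 32.2 and 33.1 TPM in Cd47ΔT T cells, against 23.6 and 29.4 TPM in Cd47f/f T cells (0.30 ± 0.17, adjusted p = 0.396). Pola1, the catalytic subunit, was at 9.0 and 8.62 TPM in Cd47ΔT T cells, against 3.79 and 5.36 TPM in Cd47f/f T cells (0.83 ± 0.23, adjusted p = 0.0802), and Prim2, the large primase subunit, had 0.67 ± 0.18, adjusted p = 0.0774. None of the 4 genes of polymerases delta and epsilon passed. Pold2, the accessory subunit of polymerase delta, was at 39.1 and 36.4 TPM in Cd47ΔT T cells, against 43.9 and 31.2 TPM in Cd47f/f T cells, and both Cd47ΔT values fell between the 2 Cd47f/f values (0.03 ± 0.19, adjusted p = 0.97, 95% interval -0.44 to 0.49). Its sign turned in 3 alternative scalings. Pold1, the catalytic subunit of polymerase delta, was at 31.03 and 38.5 TPM in Cd47ΔT T cells, against 24.4 and 23.99 TPM in Cd47f/f T cells (0.50 ± 0.17, adjusted p = 0.139). For polymerase epsilon, the catalytic subunit Pole had 0.90 ± 0.21, adjusted p = 0.0519 and the accessory subunit Pole2 0.46 ± 0.17, adjusted p = 0.194.

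None of the 3 subunits of replication protein A, which coats single-stranded DNA at the fork and also in repair, passed the test. Rpa1, the large DNA-binding subunit, was among the most abundant of the 43 genes, at 119 and 123 TPM in Cd47ΔT T cells, against 119.6 and 139.5 TPM in Cd47f/f T cells (-0.09 ± 0.12, adjusted p = 0.801, 95% interval -0.39 to 0.21). Its genotypes overlapped, and it was the only one of the 43 with a negative value, which turned positive without Cd47f/f library 2 (0.02). Rpa2 had 0.47 ± 0.14, adjusted p = 0.102 and Rpa3, the smallest subunit, 0.37 ± 0.13, adjusted p = 0.147.

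Of the 5 genes of the clamp and its loader, 2 rose (median 0.71). Pcna, the sliding clamp that tethers the polymerases, had the highest TPM of the 43 genes in T cells, at 281 and 259 TPM in Cd47ΔT T cells, against 151 and 188 TPM in Cd47f/f T cells (0.67 ± 0.14, adjusted p = 0.033). Its processed pseudogene Pcna-ps2, 99.2% identical over 51.4% of the transcript, averaged 2.36 TPM over the 10 libraries. Among the loader subunits, Rfc3 rose (0.90 ± 0.20, adjusted p = 0.0416), while Rfc4 (0.71 ± 0.17, adjusted p = 0.0514) and Rfc5 (0.78 ± 0.20, adjusted p = 0.0632) missed the test. Rfc2, the most abundant loader subunit, was at 93.7 and 84.9 TPM in Cd47ΔT T cells, against 61.3 and 66.9 TPM in Cd47f/f T cells (0.47 ± 0.13, adjusted p = 0.0759), and it shares 952 exon bases with Lat2 on the opposite strand, which was higher in Cd47ΔT T cells (1.92, adjusted p = 0.0161). Both genes of Okazaki fragment maturation rose. Fen1, the flap nuclease, was at 33.8 and 30.8 TPM in Cd47ΔT T cells, against 16.6 and 17.8 TPM in Cd47f/f T cells (0.87 ± 0.16, adjusted p = 0.0236). Lig1, the ligase that joins the fragments, was at 29.4 and 29.8 TPM in Cd47ΔT T cells, against 12.9 and 17.8 TPM in Cd47f/f T cells (0.92 ± 0.20, adjusted p = 0.0376).

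All 5 genes of nucleotide supply rose, with a median log2 fold change of 1.57. Rrm2, the regulated small subunit of ribonucleotide reductase, had the largest change of the 43 genes, at 78.03 and 66.5 TPM in Cd47ΔT T cells, against 14.5 and 19.9 TPM in Cd47f/f T cells (2.02 ± 0.19, adjusted p = 0.0049). Rrm1, the large subunit of the same enzyme, was at 43.2 and 40.4 TPM in Cd47ΔT T cells, against 18.01 and 23.2 TPM in Cd47f/f T cells (0.99 ± 0.17, adjusted p = 0.0221). In both Cd47ΔT T cell libraries the small subunit had more TPM than the large one, and in both Cd47f/f libraries it had less. Tk1, the thymidine kinase of S phase, was at 39.9 and 37.7 TPM in Cd47ΔT T cells, against 9.63 and 11.3 TPM in Cd47f/f T cells (1.8 ± 0.17, adjusted p = 0.00461). Tyms, which makes thymidylate, was at 51.5 and 48.9 TPM in Cd47ΔT T cells, against 14.7 and 17.8 TPM in Cd47f/f T cells (1.57 ± 0.16, adjusted p = 0.00599), and Dut, which removes dUTP, was at 80.99 and 69.9 TPM in Cd47ΔT T cells, against 44.9 and 47.3 TPM in Cd47f/f T cells (0.70 ± 0.14, adjusted p = 0.0298).

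Chromatin factors and G1/S regulators had medians of 1.59 and 1.71, with 2 of 3 and 3 of 3 genes higher. Uhrf1, which recruits the maintenance methyltransferase to new DNA, was at 37.98 and 36.2 TPM in Cd47ΔT T cells, against 8.8 and 12.2 TPM in Cd47f/f T cells (1.75 ± 0.20, adjusted p = 0.00773). Chaf1a, the large subunit of the histone chaperone CAF-1, was at 10.01 and 8.55 TPM in Cd47ΔT T cells, against 2.0 and 2.89 TPM in Cd47f/f T cells (1.59 ± 0.23, adjusted p = 0.014). Its partner subunit Chaf1b was at 22.7 and 25.2 TPM in Cd47ΔT T cells, against 14.7 and 18.2 TPM in Cd47f/f T cells and did not pass (0.52 ± 0.18, adjusted p = 0.151). Chaf1a shares 4648 exon bases with Ubxn6 on the opposite strand, and Ubxn6 had a log2 fold change of -0.05. In all, 16 of the 43 genes share exon bases with another annotated gene, and with the strand setting of the counting unknown their values are uncertain. E2f1, an activator of S phase genes, was at 10.48 and 10.9 TPM in Cd47ΔT T cells, against 2.03 and 2.89 TPM in Cd47f/f T cells (1.77 ± 0.22, adjusted p = 0.00996). Both cyclins that activate CDK2 at the boundary rose. Ccne1 was at 29.7 and 30.4 TPM in Cd47ΔT T cells, against 12.8 and 18.5 TPM in Cd47f/f T cells (0.92 ± 0.21, adjusted p = 0.0456), and Ccne2 at 8.35 and 6.91 TPM in Cd47ΔT T cells, against 1.47 and 1.8 TPM in Cd47f/f T cells (1.71 ± 0.22, adjusted p = 0.0108). No genotype overlap was seen for any of these 6 genes.

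**Figure D2:**
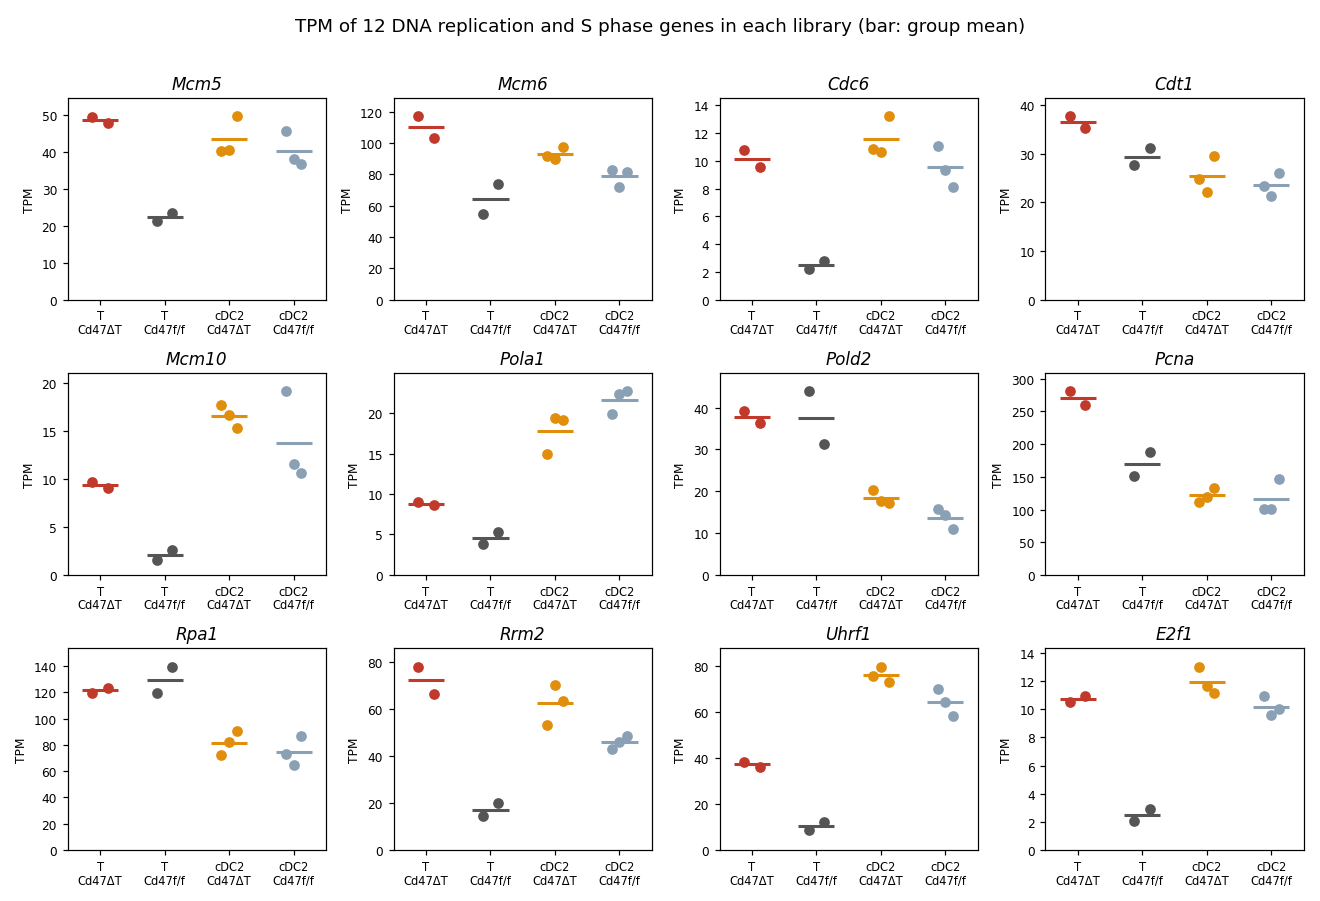
TPM of 12 of the 43 genes in each of the 10 libraries, with a bar at the group mean and panels that start at 0 on the vertical axis. In T cells the genotypes overlap for Pold2 and Rpa1 and do not for Mcm5, Mcm6, Cdc6, Cdt1, Mcm10, Pola1, Pcna, Rrm2, Uhrf1 and E2f1. In cDC2s the genotypes overlap for 6 of the 12 genes and do not for Mcm6, Pola1, Pold2, Rrm2, Uhrf1 and E2f1.

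The changes were unequal, and they were larger for genes with a lower level in Cd47f/f T cells. Of 9 genes under a mean of 5 TPM in controls, 8 were higher (7 of 8 without Orc1), with a median log2 fold change of 1.59. Of 17 genes between 5 and 20 TPM, 9 rose (median 0.87), and of 17 genes at 20 TPM or more, 6 rose (median 0.48). Over all genes tested the shares that were higher in the same ranges were 21.3%, 5.25% and 3.2%. Across the 43 genes the log2 control level and the log2 fold change correlated at Pearson r = -0.67 and Spearman rho = -0.68, and across all genes tested at -0.34 and -0.27. These are descriptions across genes, which share libraries, and the control level enters both measures. Under each alternative tried except the absence of a filter, 10 genes were called: Mcm5, Cdc6, Cdc45, Mcm10, Rrm2, Tyms, Tk1, Chaf1a, Uhrf1 and E2f1. Each of the other 13 lost its call in at least 1 more alternative. Of the 23, 12 lost it without Cd47ΔT library 1, 7 without Cd47ΔT library 2, 7 without Cd47f/f library 1 and 0 without Cd47f/f library 2.

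**Figure D3:**
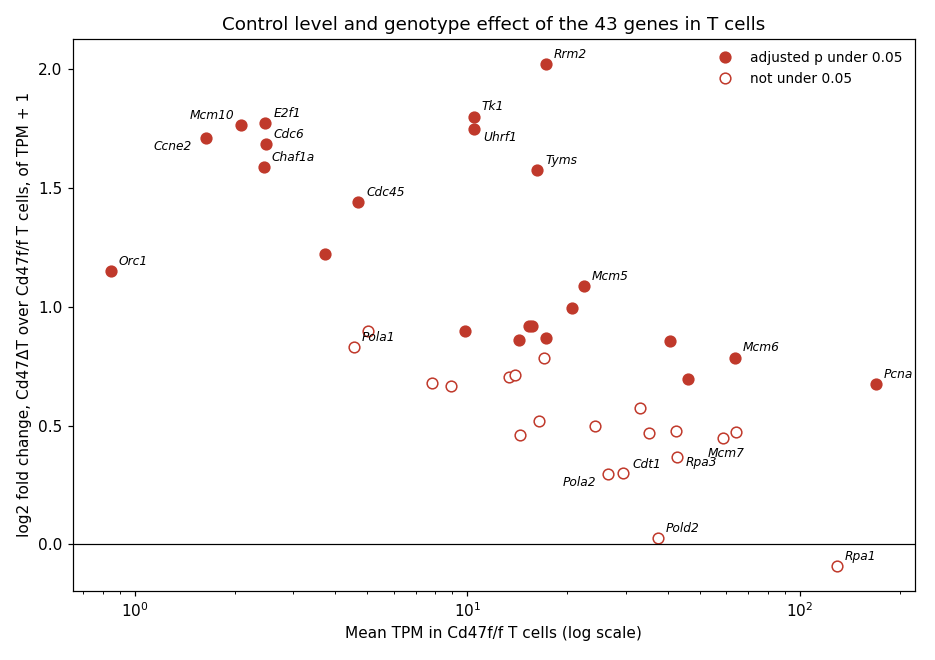
Mean TPM in Cd47f/f T cells (log axis) against the log2 fold change of the 43 genes in T cells (Cd47ΔT over Cd47f/f, of TPM + 1), with filled points for an adjusted p under 0.05. Genes under 5 TPM in controls lie between 0.83 and 1.77, and the most abundant, such as Rpa1 and Pcna, lie at or under 0.67.

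Other genes of replication and the cell cycle were taken from 7 written lists of 136 genes, of which 134 could be tested in T cells. Of 33 other origin and replisome factors, 4 were higher (12.1%, near the 8.5% of all genes) and 0 lower, with a median log2 fold change of 0.29. These were Clspn, the claspin mediator of the fork checkpoint (2.02 ± 0.25, adjusted p = 0.00956), Top2a, the topoisomerase that untangles daughter strands (2.19 ± 0.28, adjusted p = 0.00992), Dscc1 of an alternative clamp loader (1.16 ± 0.22, adjusted p = 0.0265) and Ticrr, a helicase activation factor (1.11 ± 0.23, adjusted p = 0.036). Of 18 further nucleotide synthesis enzymes 2 were higher (11.1%, also near the share of all genes), among them the nucleoside diphosphate kinase Nme1 (0.80 ± 0.19, adjusted p = 0.0496), with a list median of 0.16. Of 10 chromatin and histone supply factors 3 were higher (30.0%), the histone chaperone Asf1b (1.45 ± 0.17, adjusted p = 0.0081), Cdca7 (1.0 ± 0.17, adjusted p = 0.0187) and the remodeller Hells (1.02 ± 0.21, adjusted p = 0.0351). Of 16 cyclins, kinases and E2F factors, 6 were higher (37.5%, median 0.71), among them cyclin A2 (Ccna2, 1.99 ± 0.20, adjusted p = 0.00557) and the repressive E2F factors E2f7 (1.77 ± 0.27, adjusted p = 0.0151) and E2f8 (1.57 ± 0.29, adjusted p = 0.0254). E2f7 and Ccnd1, both under 1 TPM in the Cd47f/f libraries, entered the test only through the Cd47ΔT libraries, and without them 4 of 14 were higher. Of 19 checkpoint and fork repair genes, 6 were higher (31.6%, median 0.61), among them the checkpoint kinase Chek1 (1.22 ± 0.21, adjusted p = 0.0194).

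Of 18 genes that restrain S phase and could be tested, 4 were higher in Cd47ΔT T cells (22.2%, against 8.5% of all genes). As lower, 1 passed (5.56%, against 0.875% of all genes). The median log2 fold change was 0.12, near the 0.10 of all genes tested. Geminin (Gmnn), which blocks Cdt1 and itself peaks in S phase, was at 42.1 and 35.3 TPM in Cd47ΔT T cells, against 15.4 and 18.2 TPM in Cd47f/f T cells (1.15 ± 0.17, adjusted p = 0.0146). The CDK inhibitor p18 (Cdkn2c) was at 32.9 and 26.7 TPM in Cd47ΔT T cells, against 8.47 and 10.9 TPM in Cd47f/f T cells (1.53 ± 0.20, adjusted p = 0.0112). The inhibitors p21 (Cdkn1a, 1.76 ± 0.25, adjusted p = 0.013) and Cdkn2a (1.5 ± 0.24, adjusted p = 0.0172) had Cd47f/f values under 1 TPM and entered the test only through the Cd47ΔT libraries. Without such genes 2 of 16 were higher, against 777 of 11912 of all genes. The antiproliferative gene Btg1, high in resting lymphocytes, was at 183 and 179 TPM in Cd47ΔT T cells, against 284 and 279 TPM in Cd47f/f T cells and was the one that was lower (-0.64 ± 0.10, adjusted p = 0.0156). Summed, the 20 inhibitors were at 1695 and 1672 TPM in Cd47ΔT T cells, against 1788 and 1995 TPM in Cd47f/f T cells.

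Mitosis genes, which act after replication, had a larger fold in summed level than the replication genes, a difference that was not tested. Of 20, 19 were higher, with a median of 1.84, and Cdk1, the kinase that starts mitosis, was at 60.4 and 62.03 TPM in Cd47ΔT T cells, against 13.5 and 13.6 TPM in Cd47f/f T cells (2.09 ± 0.14, adjusted p = 0.00217). Birc5, a subunit of the chromosomal passenger complex, had 2.06 ± 0.19, adjusted p = 0.00458, and Ube2c, a ubiquitin-conjugating enzyme that works with the anaphase-promoting complex, 2.3 ± 0.23, adjusted p = 0.00544. The 20 summed to 654 and 579 TPM in Cd47ΔT T cells, against 151 and 201 TPM in Cd47f/f T cells, a 3.5-fold higher mean, against the 1.62-fold of the replication genes. The 43 replication genes thus made up 2.9 and 3.1 times the mitosis sum in Cd47ΔT T cells, against 6.94 and 6.06 times in Cd47f/f T cells. By sum, helicase activation (2.55-fold), nucleotide supply (2.52-fold), the G1/S regulators (2.45-fold) and chromatin factors (2.39-fold) lay nearest to mitosis, and single-stranded DNA binding lay at 1.09-fold. Over the alternatives, the number higher ranged from 1 to 20 of the mitosis genes and from 0 to at most 11 in each of the other 6 lists.

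**Figure D4:**
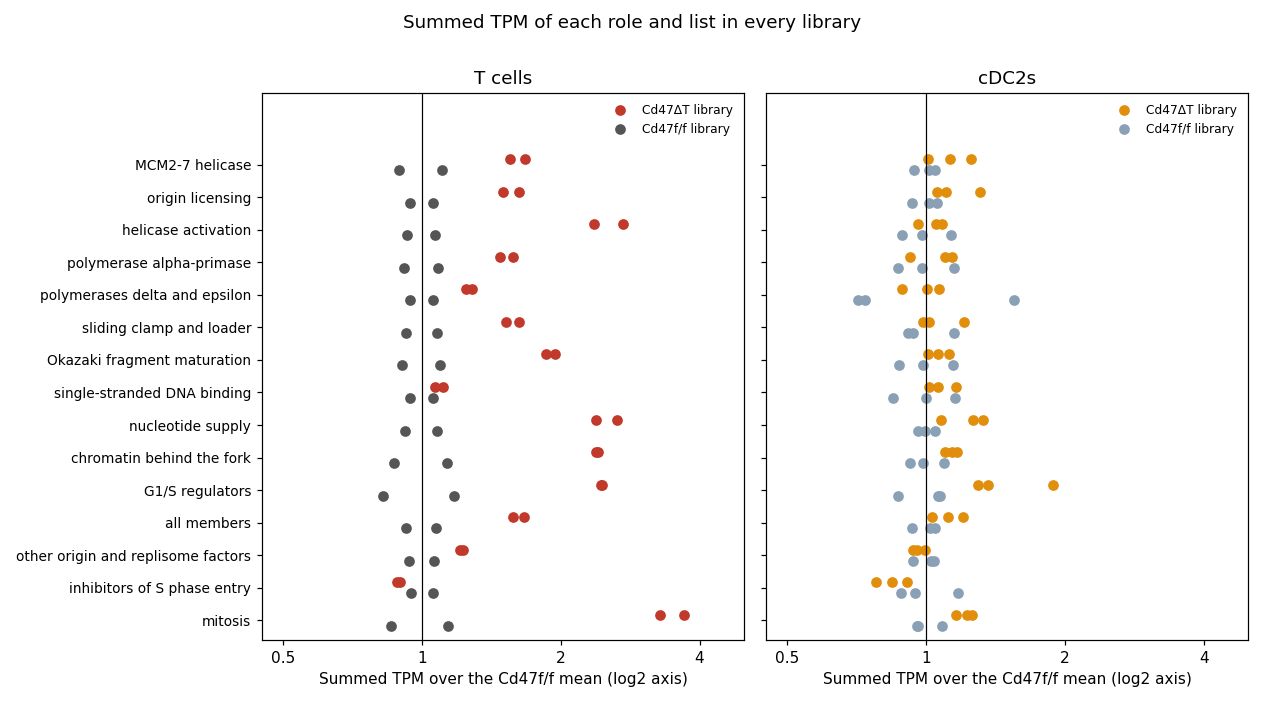
Summed TPM of each role and of 3 further lists in every library, divided by the Cd47f/f mean of the same cell type (log2 axis), with T cells on the left and cDC2s on the right. In T cells both Cd47ΔT points lie right of both Cd47f/f points for each role and for mitosis and left of them for the inhibitors, and in cDC2s the groups overlap for most roles.

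In cDC2s of the same genotypes, no replication gene passed the test, and the levels moved little. With limma over 12058 genes, 0 of the 43 were called in either direction, where 0.249% of all genes were higher and 0.381% lower. An unadjusted p under 0.05 was reached by 4 of the 43, against 1618 of the 12058. The median log2 fold change was 0.15 over the 43 and -0.07 over all genes. Of the 43 values 36 were positive, against 39.3% of all genes. All 3 Cd47ΔT libraries lay above all 3 Cd47f/f libraries for 7 of the 43 (16.3%), against 6.38% of all genes. These were Mcm6, Prim1, Pold2, Rpa3, Rrm2, Uhrf1 and E2f1. All 3 lay below for Gins2 and Pola1 (4.65%), against 13.5% of all genes. The 43 genes summed to 1386, 1504 and 1618 TPM in Cd47ΔT cDC2s, against 1375, 1254 and 1409 TPM in Cd47f/f cDC2s, a 1.12-fold higher mean, and Cd47ΔT library 1 fell within the Cd47f/f values. Without Cd47f/f library 3, the one that stood apart, 0 of the 43 were called (9 genes higher and 6 lower in the whole table) and the median was 0.19.

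The 5 genes with the smallest p in cDC2s came from 5 roles. Prim1 was at 24.8, 20.3 and 22.5 TPM in Cd47ΔT cDC2s, against 13.8, 13.02 and 15.2 TPM in Cd47f/f cDC2s (0.64 ± 0.15, adjusted p = 0.121, 95% interval 0.30 to 0.99). Rrm2 was at 53.3, 70.3 and 63.5 TPM in Cd47ΔT cDC2s, against 42.95, 46.01 and 48.4 TPM in Cd47f/f cDC2s (0.43 ± 0.13, adjusted p = 0.213, 95% interval 0.13 to 0.73). In both the 2 genotypes stood apart without passing the adjustment. Ccne2 was at 33.3, 14.8 and 10.7 TPM in Cd47ΔT cDC2s, against 4.16, 13.7 and 6.3 TPM in Cd47f/f cDC2s (1.17 ± 0.49, adjusted p = 0.35), with most of its difference in 1 Cd47ΔT library and an overlap between genotypes. Mcm6 was at 91.6, 89.9 and 97.6 TPM in Cd47ΔT cDC2s, against 82.9, 71.9 and 81.6 TPM in Cd47f/f cDC2s (0.24 ± 0.10, adjusted p = 0.361), and Pold2 at 20.2, 17.8 and 17.2 TPM in Cd47ΔT cDC2s, against 15.8, 14.3 and 10.98 TPM in Cd47f/f cDC2s (0.41 ± 0.18, adjusted p = 0.375). Pold1 had 1 value far from its group, with 33.9, 41.9 and 42.1 TPM in Cd47ΔT cDC2s, against 80.2, 26.4 and 27.7 TPM in Cd47f/f cDC2s. None of the 135 genes tested from the 7 further lists was called in cDC2s. The mitosis genes summed to 792, 836 and 857 TPM in Cd47ΔT cDC2s, against 657, 739 and 651 TPM in Cd47f/f cDC2s, without overlap, although 0 of 20 were called. B cell markers in these libraries summed to 164, 153 and 116 TPM in Cd47ΔT cDC2s, against 241, 271 and 218 TPM in Cd47f/f cDC2s and red pulp macrophage markers to 124, 182 and 178 TPM in Cd47ΔT cDC2s, against 226, 167 and 197 TPM in Cd47f/f cDC2s. The neutrophil markers S100a8 and S100a9 were at 0 in all 6, as was Pf4 of platelets. The part of other cells in the cDC2 values was not tested.

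The genotype effect on 10 of the 43 replication genes was larger in T cells than in cDC2s. In 1 limma fit of all 10 libraries, the difference between the effects (T cells minus cDC2s, on the log2 scale) passed an adjusted p of 0.05 as higher for 10 of 43 (23.3%) and as lower for 0, where 5.4% of 10650 genes were higher and 0.3% lower. That fit assumes the same spread of a gene in both cell types, although their library kits differ. Tk1 had a difference of 1.71 ± 0.24 (adjusted p = 0.00141), with an effect of 1.8 in T cells and 0.09 in cDC2s. Chaf1a had 1.65 ± 0.28 (adjusted p = 0.00439), with effects of 1.59 in T cells and -0.06 in cDC2s. For Rrm2 the difference was 1.59 ± 0.24 (adjusted p = 0.0028) and for Uhrf1 1.5 ± 0.22 (adjusted p = 0.00217). Those 4 were called under all 20 alternatives. The others were E2f1 (1.56, adjusted p = 0.00674), Cdc6 (1.42, 0.0164), Mcm10 (1.47, 0.0368), Cdc45 (1.27, 0.0389), Mcm5 (0.97, 0.0223) and Pola1 (1.1, 0.0425). Pola1 was not called in T cells alone, and its cDC2 values, 14.99, 19.4 and 19.1 TPM in Cd47ΔT cDC2s, against 19.9, 22.3 and 22.7 TPM in Cd47f/f cDC2s, lay lower in Cd47ΔT (-0.27 ± 0.16, adjusted p = 0.517). The count was 4 without either Cd47ΔT T cell library and 5 without Cd47f/f T cell library 1. It was 6 without Cd47f/f cDC2 library 1, Cd47ΔT cDC2 library 1 or Cd47ΔT cDC2 library 2, and 6 under quantile or median-of-ratios scaling.

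Between the cell types, the levels were ordered differently in the 2 genotypes. In Cd47ΔT, all T cell libraries lay above all cDC2 libraries for 21 of the 43 genes and below for 11, with a median ratio of T cell to cDC2 means of 1.19. In Cd47f/f, all T cell libraries lay above all cDC2 libraries for 9 genes and below for 24, with a median ratio of 0.63. The same counts were not made over all genes. Whether the order differs more for these 43 than for other genes was thus not tested. Cdc6 was an example, with means of 10.2 TPM in Cd47ΔT T cells and 11.6 TPM in Cd47ΔT cDC2s, and of 2.48 TPM in Cd47f/f T cells and 9.53 TPM in Cd47f/f cDC2s. Pcna and Rpa1 were higher in T cells than in cDC2s in every library of both genotypes. Uhrf1, at 75.5, 79.5 and 72.7 TPM in Cd47ΔT cDC2s, was lower in all 4 T cell libraries. Cell type and library kit cannot be told apart in these ratios.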

How the data were processed

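The authors deposited 1 table of TPM, 45706 genes by 10 libraries, made with STAR, RSEM and DESeq2 on GRCm38, per the submitters' processing notes (versions, annotation release and strand setting are not in the labels). TPM keep no depth, so no counting interval is given, and values of genes that overlap another gene or have a near copy are uncertain. Identifiers were matched to GENCODE M21 (98.8%). Libraries were grouped by the labels. Genes that reached 1 TPM in 2 or more T cell or 3 or more cDC2 libraries were tested on log2(TPM + 1) with limma 3.58.1 in R 4.3.3 (lmFit, eBayes with a variance trend), with genotype as the term, Benjamini-Hochberg adjustment over all genes tested and a threshold of 0.05. The difference between the genotype effects was an interaction in 1 fit over genes passing both filters. The steps were tested on simulated data.

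The 43 genes and the lists were chosen with earlier results of these data known. Named genes were, per role, the 1 or 2 with the highest mean TPM in T cells; any not called in the majority direction; the 3 largest and 3 smallest changes; the 5 smallest p in cDC2s; all called in the interaction; and up to 3 with the smallest p per further list. Some genes under this rule are not reported here, and others named were chosen after their values were seen. The alternatives tried were pseudocounts of 0.1 and 5, no filter, a filter of 5 TPM, quantile, median-of-ratios and protein-coding scaling, a fit without a variance trend or with a robust one, a joint fit of both cell types, a replicate block and leaving out each library. Promoters came from RefSeq's GRCm38.p6 table and near copies from blastn 2.17.0. Tables and figures used Python 3.11.15 and matplotlib 3.10.9.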

Additional observations from a re-analysis of the deposited data

Results flagged for a closer look

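The genotype effect differed between T cells and cDC2s for 10 replication genes, by limma's test of the difference itself (T cells minus cDC2s, log2 scale, Benjamini-Hochberg adjusted p under 0.05). The difference was 1.71 for Tk1, 1.65 for Chaf1a, 1.59 for Rrm2, 1.56 for E2f1 and 1.5 for Uhrf1. It was 1.47 for Mcm10, 1.42 for Cdc6, 1.27 for Cdc45, 1.1 for Pola1 and 0.97 for Mcm5. Of these, 9 rose in T cells. Pola1 did not pass there, and its difference joins a positive value in T cells with a negative one in cDC2s. Library kit goes with cell type in this comparison and cannot be told apart from it.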

How the results depend on the processing

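In T cells, 41 of the 43 genes kept a positive value in each of the 15 alternatives in which they were tested. Pold2 turned to -0.0932 under quantile, -0.127 under median-of-ratios and -0.0099 under protein-coding scaling, and ranged from -0.213 to 0.265 when 1 library was left out. Rpa1 ranged from -0.20 to 0.0211 in the same way. The number of genes called was 0 without a filter and 36 with replicate numbers as a block, where all genes were called higher at 15.9%, against 8.5% as reported. Without a filter 14 of all genes were called higher. The count ranged from 11 to 33 on leaving out 1 library (5.49% to 14.2% of all genes), and was between 18 and 25 under the other alternatives. The median change was 0.66 with a pseudocount of 5 and 0.63 under quantile scaling, where the median of all genes was -0.08. Taken relative to the median of all genes it was 0.73 as reported, 0.71 under quantile and 0.74 under median-of-ratios scaling. In cDC2s 0 of the 43 were called under every alternative, but few genes were called in the whole table: at most 68 higher and 103 lower, and 0 in either direction without Cd47ΔT library 1, Cd47ΔT library 3 or Cd47f/f library 1. The median there was 0.22 under quantile, 0.23 under median-of-ratios and 0.22 under protein-coding scaling, and 0.0894 to 0.248 on leaving out 1 library. The difference between cell types was called for 6 genes under quantile and 6 under median-of-ratios scaling, for 7 with the replicate block, and for 4 to 13 on leaving out 1 library. The cause was not tested. The replicate numbers were not taken as pairs: with 2 T cell libraries per genotype there is a single value, r = 0.19 for the same number, and same-numbered cDC2 libraries deviated together at -0.044, 0.059 and 0.119. With the block, T cell p-values rest on 1 residual degree of freedom and the spread pooled over genes. Depth is unknown in TPM and limits the genes with low values most.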
